A study of Homo sapiens with 6 samples.

Results

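The HIF factors and non-glycolytic hypoxia target genes of HT29 cells were taken by gene symbol: HIF1A, EPAS1, EGLN1, EGLN3, CA9, VEGFA, ADM, NDRG1, BNIP3 and ANKRD37. All 10 were among the 28278 genes listed for each library, and all 10 had enough counts to be tested. HT29 is an established human epithelial line from a colorectal adenocarcinoma. The cells received a siRNA against ALDOA, the gene of the glycolytic enzyme aldolase A (siALDOA, genotype label ALDOA KD), or a scrambled siRNA (siControl, genotype label WT). Total RNA was taken after 48 h from 3 biological replicates of each group. Both groups were transfected, no untransfected cells were among the 6 libraries, and the labels name a single siRNA against ALDOA. Gene levels are given as CPM (counts scaled to a common library size), scaled between libraries by the TMM method. Groups were compared by edgeR's quasi-likelihood test across 15307 genes, and a change was called at a Benjamini-Hochberg adjusted p below 0.05.

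Hypoxia-inducible factors (HIFs) are transcription factors made of an oxygen-regulated alpha subunit, encoded by HIF1A or EPAS1, and the constant partner ARNT. When oxygen is plentiful, prolyl hydroxylases of the EGLN family modify the alpha subunits, and the VHL ubiquitin ligase then marks them for destruction. When oxygen is scarce the subunits persist and switch on genes for acid balance, blood vessel growth, mitophagy and glycolysis, ALDOA among them. HIF activity is thus largely set at the level of the protein, which RNA counts do not measure.

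HIF complexes bind DNA at the core letters ACGTG or GCGTG. The 250 bases before the transcription start were therefore searched for both words on both strands, with the promoter sequences and start sites of RefSeq (GRCh38.p14). The search covered 8 of the 10 genes, and the promoters of VEGFA and NDRG1 were not analysed here. At least 1 match was found in 7 of the 8, all but EGLN3, against 43.2% of 35116 promoters of the same length. The word ACGTG was present in 4 of the 8 (EGLN1, CA9, BNIP3 and ANKRD37), against 18.5% of all promoters. The share of G and C in these 8 promoters was 60.4% to 81.6%. The comparison with all promoters was not matched for this share, so enrichment of the words was not tested. BNIP3 had 6 matches and ANKRD37 had 3. A CACGTG palindrome, present in both BNIP3 and ANKRD37, counts as ACGTG on both strands. Neither gene passed the test. The promoters of the 3 genes that changed, and that of ANKRD37, are shown here in the direction of the gene, with matches in capitals. They lie at chr2:46297157-46297406 (plus strand), chr1:231422288-231422537 (minus strand), chr9:35673678-35673927 (plus strand) and chr4:185396591-185396840 (plus strand).
EPAS1: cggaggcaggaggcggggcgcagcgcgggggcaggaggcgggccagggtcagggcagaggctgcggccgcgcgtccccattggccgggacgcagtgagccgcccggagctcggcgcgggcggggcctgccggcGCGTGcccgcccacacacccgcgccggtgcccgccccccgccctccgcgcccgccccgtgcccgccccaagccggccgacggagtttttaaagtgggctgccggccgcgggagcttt
EGLN1: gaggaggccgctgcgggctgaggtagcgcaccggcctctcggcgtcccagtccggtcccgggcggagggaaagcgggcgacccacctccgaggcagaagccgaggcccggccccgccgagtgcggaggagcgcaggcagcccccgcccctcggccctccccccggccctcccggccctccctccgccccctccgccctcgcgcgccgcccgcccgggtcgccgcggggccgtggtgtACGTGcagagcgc
CA9: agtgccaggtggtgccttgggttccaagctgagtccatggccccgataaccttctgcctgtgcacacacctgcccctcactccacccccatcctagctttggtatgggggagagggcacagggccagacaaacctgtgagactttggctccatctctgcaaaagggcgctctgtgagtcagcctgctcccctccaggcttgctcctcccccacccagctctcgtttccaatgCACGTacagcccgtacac
ANKRD37: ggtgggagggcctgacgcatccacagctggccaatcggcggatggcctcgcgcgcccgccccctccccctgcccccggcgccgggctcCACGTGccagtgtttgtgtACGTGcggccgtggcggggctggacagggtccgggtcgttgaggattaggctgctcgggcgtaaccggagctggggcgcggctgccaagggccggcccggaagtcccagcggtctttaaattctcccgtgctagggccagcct
In CA9 the match lies on the minus strand, and its first base is 18 bases before the start site. In EGLN1 it lies on the plus strand, 13 bases before the start. The match in EPAS1 is GCGTG, 117 bases before the start. The RefSeq start sites of EPAS1, EGLN3, BNIP3 and ANKRD37 lie inside the longer GENCODE spans given for these genes further on. These are matches of letters, and binding was not measured.

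Depth ranged from 27277538 to 33237914 counts per library. Ribosomal RNA genes took 13.1%, 7.71% and 8.11% of them in siALDOA replicates 1, 2 and 3. In siControl replicates 1, 2 and 3 they took 17.4%, 15.3% and 8.15%. The share thus differed within both groups and was uneven between them. ALDOA, the target of the siRNA, was at 283, 305 and 280 CPM with siALDOA and at 592, 637 and 668 CPM with siControl. Its log2 fold change was -1.13 (standard error 0.060, adjusted p = 6.95e-11). Of 11 markers of colon epithelium, 10 were tested and 1 (LGALS4) had 0 counts in every library. Their summed level was 9479 to 9811 CPM with siALDOA and 10045 to 10606 CPM with siControl, with KRT19 called higher and KRT18 called lower. The 6 fibroblast markers summed to at most 4.46 CPM, the 5 blood cell markers to at most 0.192 CPM and the 4 endothelial markers to at most 2.12 CPM in any library. Of these 15 markers, COL1A2, TYROBP, S100A8 and KDR were at 0 in all 6 libraries, and PECAM1 alone was called, as lower. Because the RNA is from bulk cultures, fewer cells that express a gene and less RNA per cell cannot be told apart.

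With siALDOA, 3 of the 10 genes changed. EPAS1 and EGLN1 fell and CA9 rose, and the other 7 did not pass the test. Over all genes tested, 9.66% were called, 4.36% as higher and 5.29% as lower. The median log2 fold change of the 10 genes was 0.0040, beside 0.0016 over all genes tested, and 5 of them lay above 0 and 5 below. The levels in siALDOA and siControl libraries did not overlap for EPAS1, EGLN1 and CA9, and overlapped for the other 7. Of all genes tested, 27.7% did not overlap.

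**Figure D1:**
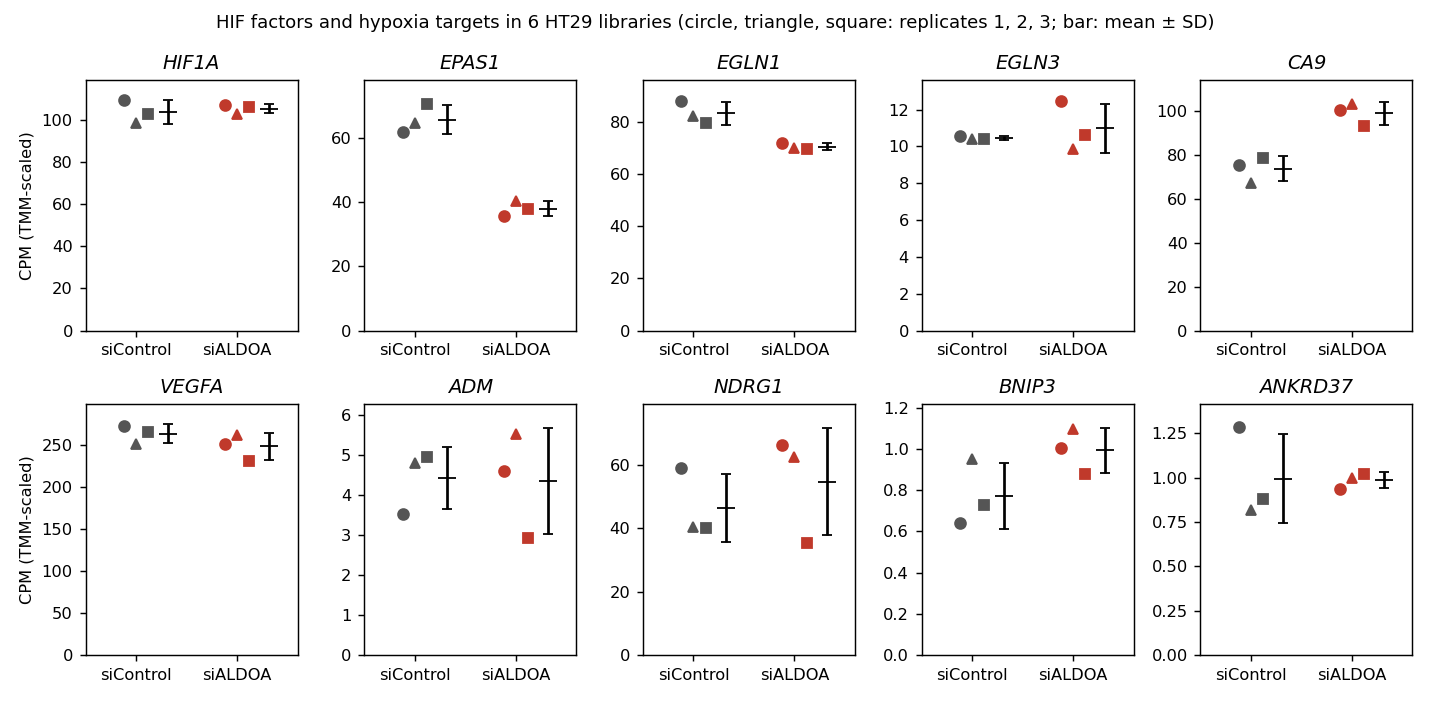
TMM-scaled CPM of the 10 genes (vertical axis, a separate scale from 0 for each gene) in the 3 siControl (grey) and 3 siALDOA (red) libraries, with the mean ± SD of each group beside the points. EPAS1 and EGLN1 are lower and CA9 is higher in every siALDOA library than in any siControl library, while the groups of the other 7 genes overlap.

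EPAS1 (ENSG00000116016, chromosome 2, 46293667 to 46386697), which encodes the alpha subunit of HIF-2, showed the largest change of the 10 genes. Its counts were 992, 1212 and 1074 with siALDOA and 1925, 1971 and 2325 with siControl. On the CPM scale these were 35.6, 40.3 and 37.8 against 61.7, 64.6 and 70.6, so that every siALDOA library lay well below every siControl library. The mean fell from 65.6 ± 4.50 CPM (SD, n = 3) to 37.9 ± 2.35 CPM (SD, n = 3), which is -0.79 on the log2 scale with a standard error of 0.073 (adjusted p = 1.87e-07) and leaves 0.578 of the siControl mean. EPAS1 ranked 66 by p among all genes tested. Under the 16 alternative settings its log2 fold change stayed between -0.84 and -0.72.

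HIF1A (ENSG00000100644, chromosome 14, 61695513 to 61748259), the gene of the alpha subunit of HIF-1, was at 107, 103 and 106 CPM with siALDOA and at 110, 98.8 and 103 CPM with siControl. The highest and the lowest of these values were both from siControl libraries. Its log2 fold change was 0.021 (95% interval -0.10 to 0.15, adjusted p = 0.874), and without siControl replicate 2 it was -0.015. The annotated span of HIF1A overlaps those of antisense genes, and the strand setting of the counts is not given in the sources used here. HIF1A-AS2, whose RefSeq span shares 1220 bases with that of HIF1A, was at 34.1 ± 3.10 CPM (SD, n = 3) and 34.6 ± 2.55 CPM (SD, n = 3) with siALDOA and siControl, with a log2 fold change of -0.022 (adjusted p = 0.910).

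The balance between the alpha subunits was also compared within each library, where scaling between libraries plays no part. There were 0.333, 0.392 and 0.356 counts of EPAS1 per count of HIF1A with siALDOA and 0.562, 0.654 and 0.686 with siControl. The ratios of the groups did not overlap, and the mean log2 ratio differed by -0.81 between siALDOA and siControl. An exact two-sided permutation test gave p = 0.1, the smallest value that 3 libraries against 3 allow. Leaving out a library in turn kept the difference between -0.90 and -0.75.

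**Figure D2:**
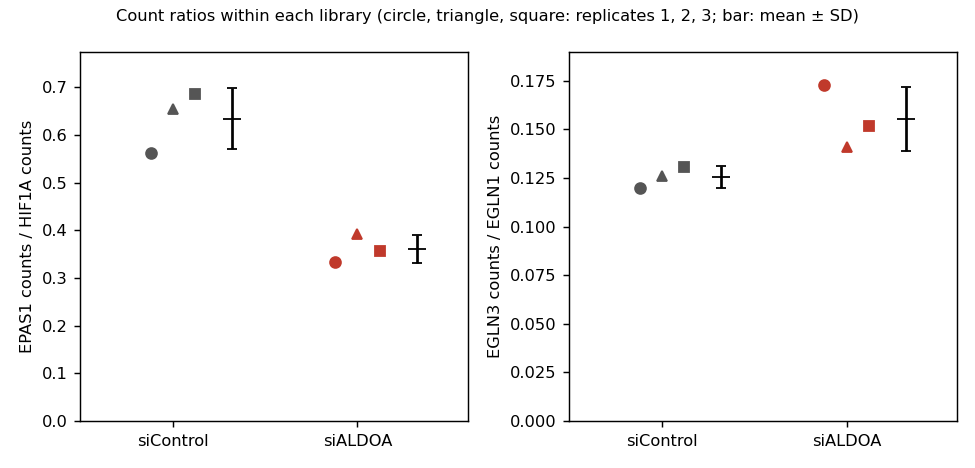
Counts of EPAS1 per count of HIF1A (left) and of EGLN3 per count of EGLN1 (right) in each library, with both vertical axes starting at 0 and the mean ± SD of each group beside the points. The EPAS1 to HIF1A ratio lies between 0.333 and 0.392 with siALDOA and between 0.562 and 0.686 with siControl, and the EGLN3 to EGLN1 ratio lies higher in each siALDOA library than in any siControl library.

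EGLN1 (ENSG00000135766, chromosome 1, 231363751 to 231422287) encodes PHD2, the main oxygen-sensing prolyl hydroxylase of HIF. It was at 72.0, 69.8 and 69.7 CPM with siALDOA and at 88.1, 82.2 and 79.5 CPM with siControl. Its exons share 3004 annotated bases with another protein-coding gene on the same strand that was not analysed here. The siALDOA libraries were close to each other and all lay below the siControl libraries. The mean fell from 83.3 ± 4.43 CPM (SD, n = 3) to 70.5 ± 1.29 CPM (SD, n = 3), which is -0.24 on the log2 scale with a standard error of 0.063 (adjusted p = 0.0170). The direction was kept in all 16 alternative settings, but the call was lost in 5 of them. With scaling by library totals only, the log2 fold change was -0.17 (adjusted p = 0.230), and that scaling moved the median of all genes to 0.075. Leaving out siALDOA replicate 2 gave an adjusted p of 0.0663 and leaving out siALDOA replicate 3 gave 0.0589. It was 0.0852 without siControl replicate 1 and 0.0550 without siControl replicate 2.

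EGLN3 (ENSG00000129521, chromosome 14, 33924227 to 34462774), the gene of the related hydroxylase PHD3, is itself a target of HIF. It was at 12.5, 9.85 and 10.6 CPM with siALDOA and at 10.6, 10.4 and 10.4 CPM with siControl. The siControl libraries were nearly equal, and the siALDOA libraries lay on both sides of them. The log2 fold change was 0.070 (95% interval -0.18 to 0.32, adjusted p = 0.779), and it was -0.031 without siALDOA replicate 1. There were 0.173, 0.141 and 0.152 counts of EGLN3 per count of EGLN1 with siALDOA, against 0.120, 0.126 and 0.131 with siControl. The mean log2 ratio differed by 0.30 and the groups did not overlap (exact two-sided permutation p = 0.1, the smallest possible).

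CA9 (ENSG00000107159, chromosome 9, 35673928 to 35681159) encodes carbonic anhydrase IX, a cell-surface enzyme that helps cells to keep their pH and is widely used as a marker of hypoxia. Its counts were 2793, 3099 and 2650 with siALDOA and 2348, 2058 and 2589 with siControl. In CPM the libraries were at 100.3, 103 and 93.3 against 75.3, 67.4 and 78.6, so that the lowest siALDOA library exceeded the highest siControl library. The mean rose from 73.8 ± 5.72 CPM (SD, n = 3) to 98.9 ± 5.08 CPM (SD, n = 3), which is 0.42 on the log2 scale with a standard error of 0.068 (adjusted p = 2.83e-04). It stayed between 0.36 and 0.49 in the 16 alternative settings and was called in each. ARHGEF39, a gene on the opposite strand whose annotated exons share 571 bases with those of CA9, also rose, by 0.29 on the log2 scale (adjusted p = 0.0380). Its mean went from 23.6 to 29.0 CPM, a difference of 5.35 CPM, while that of CA9 was 25.1 CPM. Without the strand setting, reads from the shared bases cannot be told apart.

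VEGFA (ENSG00000112715, chromosome 6, 43770184 to 43786487), the gene of the main growth factor for blood vessels, had the highest level of the 10 genes. It was at 251, 262 and 231 CPM with siALDOA and at 273, 251 and 265 CPM with siControl. The groups overlapped, and the log2 fold change was -0.085 (95% interval -0.21 to 0.039, adjusted p = 0.424). The interval leaves no room for a fall as large as that of EPAS1 or for a rise as large as that of CA9. In the 16 alternative settings the log2 fold change of VEGFA lay between -0.13 and -0.013 and was never called.

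NDRG1 (ENSG00000104419, chromosome 8, 133237175 to 133302022), a stress-induced gene linked to growth arrest and differentiation, varied more between replicates than any other of the 10 genes above 5 CPM. It was at 66.1, 62.4 and 35.2 CPM with siALDOA and at 58.8, 40.4 and 39.97 CPM with siControl. The lowest of the 6 values was siALDOA replicate 3, and siControl replicate 1 lay near the other siALDOA libraries. The log2 fold change was 0.24 (95% interval -0.11 to 0.58, adjusted p = 0.418). With a library left out it ranged from 0.074 (adjusted p = 0.850, without siALDOA replicate 1) to 0.47 (adjusted p = 0.0194, without siALDOA replicate 3). It was 0.44 without siControl replicate 1 (adjusted p = 0.0983). It was 0.13 without siALDOA replicate 2, and 0.14 without siControl replicate 2 as well as without siControl replicate 3 (adjusted p from 0.742 to 0.752). With no filter on low counts it was 0.23 (adjusted p = 0.0308).

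ADM (ENSG00000148926, chromosome 11, 10305073 to 10307397), which encodes the vasodilator peptide adrenomedullin, was at 4.60, 5.52 and 2.92 CPM with siALDOA and at 3.53, 4.78 and 4.95 CPM with siControl. Its lowest value was again that of siALDOA replicate 3 and its highest that of siALDOA replicate 2. The log2 fold change was -0.022 (95% interval -0.47 to 0.43, adjusted p = 0.965), and its sign turned in 4 of the 16 alternative settings.

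BNIP3 (ENSG00000176171, chromosome 10, 131967684 to 131981967), a mitochondrial protein gene of hypoxia-induced mitophagy, had from 20 to 33 counts in a library. It was at 1.01, 1.098 and 0.880 CPM with siALDOA and at 0.641, 0.950 and 0.728 CPM with siControl. The log2 fold change of 0.36 had a 95% interval from -0.42 to 1.15 (adjusted p = 0.620), so that a rise or a fall of the size seen in CA9 was not detectable at this depth. PPP2R2D, whose RefSeq span shares 3850 bases with that of BNIP3, was at 30.0 and 29.2 CPM with siALDOA and siControl. The GENCODE spans of PPP2R2D and BNIP3 do not overlap. ANKRD37 (ENSG00000186352, chromosome 4, 185396021 to 185400628), an ankyrin repeat gene induced by HIF, had from 25 to 40 counts. It was at 0.934, 0.998 and 1.02 CPM with siALDOA and at 1.28, 0.819 and 0.880 CPM with siControl, a log2 fold change of -0.013 (95% interval -0.78 to 0.75, adjusted p = 0.987). UFSP2, on the opposite strand, shares 909 annotated exonic bases with ANKRD37 and was at 7.08 and 6.97 CPM with siALDOA and siControl.

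**Figure D3:**
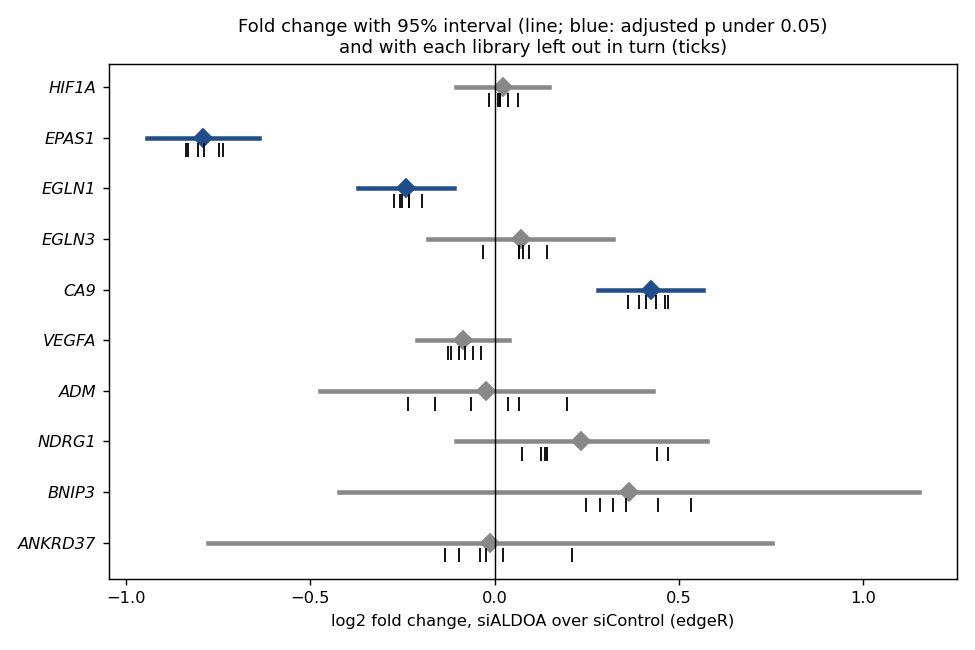
Log2 fold change of each of the 10 genes between siALDOA and siControl (horizontal axis, diamonds) with its 95% interval from edgeR (lines, blue where the adjusted p was below 0.05), and the values with each library left out in turn (black ticks under each line). EPAS1 at -0.79, EGLN1 at -0.24 and CA9 at 0.42 have intervals that do not reach 0, and those of BNIP3 and ANKRD37 are the widest.

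Levels were compared between genes as CPM per kilobase of the canonical GENCODE transcript. In siControl cells VEGFA was highest, with 72.9 ± 3.04 CPM per kilobase (SD, n = 3), followed by CA9 with 47.7 ± 3.70 and HIF1A with 26.3 ± 1.41. EGLN1 (19.2 ± 1.02), NDRG1 (15.3 ± 3.56) and EPAS1 (12.7 ± 0.874) came next. The library ranges of EGLN1 and NDRG1 overlapped, as did those of NDRG1 and EPAS1. EGLN3 (3.86 ± 0.0358), ADM (2.96 ± 0.521), ANKRD37 (1.27 ± 0.321) and BNIP3 (0.502 ± 0.103) formed the lower end, with no overlap between neighbours. With siALDOA, CA9 reached 64.0 ± 3.28 CPM per kilobase and its range overlapped that of VEGFA (68.7 ± 4.36). EPAS1, at 7.36 ± 0.455, no longer overlapped NDRG1 (18.04 ± 5.58). NDRG1 still overlapped EGLN1 (16.3 ± 0.297) but now had the higher mean. EGLN3 and ADM also overlapped with siALDOA. BNIP3 and ANKRD37 lay at percentiles 9.17 and 10.3 of the mean CPM over all genes tested, and VEGFA at percentile 96.1.

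Other parts of the HIF machinery were examined beside these. Of 18 genes that encode HIF partners, further hydroxylases, the VHL ligase and its regulators, coactivators and chaperones, 16 were tested, and HIF3A and ARNT2 had 0 counts in every library. None was called higher and 1 was called lower (6.25% of those tested, beside 5.29% of all genes). The levels of 5 of the 16 (CREBBP, ELOC, VHL, HIF1AN and SIAH1) were lower in every siALDOA library than in any siControl library, as were those of 14.6% of all genes, and none of the 16 was higher in this way, beside 13.1% of all genes. The gene that passed the test was CREBBP. It is a coactivator of HIF and fell by 0.24 on the log2 scale (standard error 0.075, adjusted p = 0.0440), from 116 ± 6.55 CPM to 98.3 ± 11.6 CPM (SD, n = 3). The call was lost in 6 of the 16 alternative settings, among them library totals only (adjusted p = 0.292) and 5 of the 6 that left out a library, all but that without siALDOA replicate 3. Without siALDOA replicate 1 the log2 fold change was -0.15 (adjusted p = 0.136). ELOC, a subunit of the VHL ligase, had a log2 fold change of -0.25 (adjusted p = 0.0676), and VHL had one of -0.17 (adjusted p = 0.0986). ELOC was called lower in 4 of the 16 alternative settings and VHL in 1. The median over the 16 genes was -0.055, and 5 of them lay above 0. ARNT, the partner of both alpha subunits, was at -0.052 (adjusted p = 0.750), and the hydroxylases EGLN2 and HIF1AN were at -0.054 and -0.093, neither past the threshold. These 3 were chosen for their roles after their values were seen.

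Beyond the 6 targets described so far, 40 further non-glycolytic hypoxia targets were examined, of which 35 were tested. Of these, 1 rose and 4 fell, which is 2.86% and 11.4% of those tested beside 4.36% and 5.29% of all genes. The median log2 fold change was -0.0052. ERO1A, an oxidase of the endoplasmic reticulum that drives disulfide formation, rose from 66.0 ± 0.479 CPM to 79.98 ± 1.57 CPM (SD, n = 3), by 0.28 on the log2 scale (adjusted p = 0.00452). HMOX1, the haem-degrading enzyme, which also responds to oxidative stress, fell by 0.53 (adjusted p = 8.13e-04), from 23.2 ± 0.740 CPM to 16.1 ± 1.26 CPM. BHLHE41, a transcriptional repressor, fell by 0.38 (adjusted p = 1.43e-04). DDIT4, an inhibitor of mTOR signalling that is also induced by other stresses, fell by 0.33 (adjusted p = 0.00283), and with library totals only its log2 fold change was -0.26 and the call was lost (adjusted p = 0.0626). VLDLR, a lipoprotein receptor, fell by 0.34 (adjusted p = 0.0493) and lost the call in 11 of the 16 alternative settings, among them each of the 6 that left out a library. P4HA1, a collagen prolyl hydroxylase, was at 0.18 (adjusted p = 0.163).

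Glycolytic targets of HIF were examined for comparison. Of 18 genes, 17 were tested, 1 rose and 2 fell, which is 5.88% and 11.8% of those tested beside 4.36% and 5.29% of all genes. Their median log2 fold change was 0.036. PFKL, the liver-type phosphofructokinase, rose by 0.25 (adjusted p = 0.0135), a call that was lost without siALDOA replicate 2 (adjusted p = 0.102), siControl replicate 2 (0.0568) or siControl replicate 3 (0.0691). SLC16A3, a lactate exporter, fell by 0.25 (adjusted p = 0.0418), and SLC2A1, the main glucose transporter of many tumour cells, fell by 0.19 (adjusted p = 0.0473). SLC16A3 lost the call in 7 and SLC2A1 in 8 of the 16 alternative settings, and both lost it with library totals only and with upper quartile normalization. The log2 fold change of SLC2A1 with library totals only was -0.11 (adjusted p = 0.489). Neither PFKFB3 (-0.30, adjusted p = 0.0538) nor PGAM1 (-0.16, adjusted p = 0.0782) passed the test, but PFKFB3 was called lower in 6 and PGAM1 in 3 of the 16 alternative settings.

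**Figure D4:**
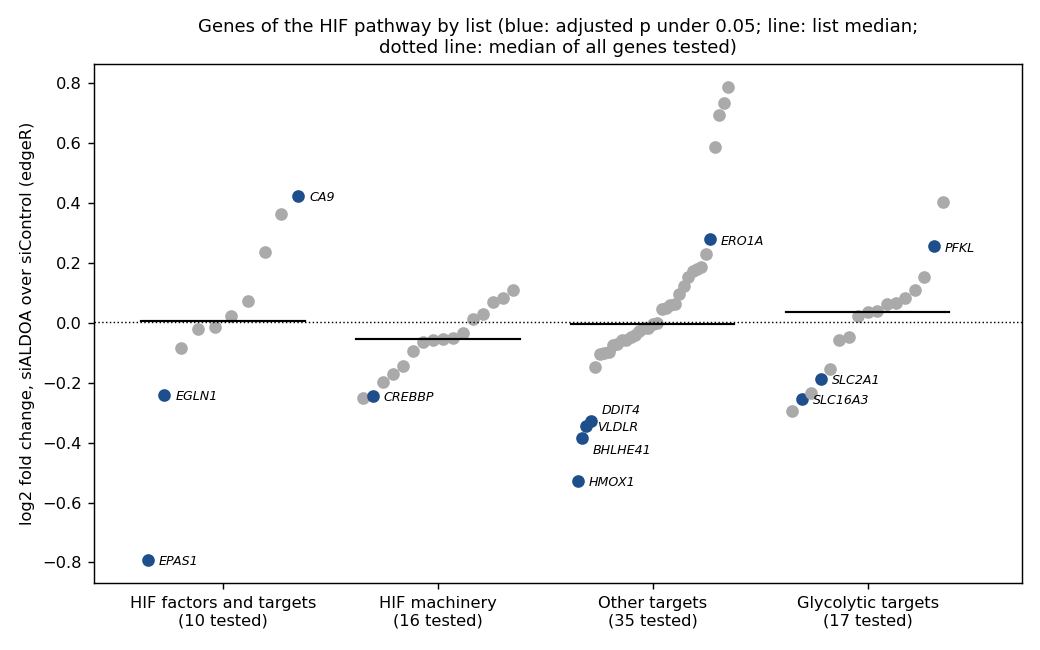
Log2 fold change between siALDOA and siControl (vertical axis) of every tested gene of the 10 HIF factors and targets, the HIF machinery, the other targets and the glycolytic targets, sorted within each list, with genes called at an adjusted p below 0.05 in blue and named, list medians as solid lines and the median of all genes tested as a dotted line. List medians lie between -0.055 and 0.036, and EPAS1 at -0.79 is the lowest point of all 4 lists.

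As a description of patterns over the 6 libraries, each of the 3 genes that changed was matched with the gene of the highest Pearson correlation in log2 CPM among 10078 others with a mean of at least 10 CPM. EPAS1 was closest to PES1 (r = 0.999), EGLN1 to ICE1 (r = 0.990) and CA9 to PHF21A (r = 0.996). The log2 fold changes of PES1, ICE1 and PHF21A were -0.25, -0.19 and 0.35. All points share the same libraries and the difference between the groups, and with 6 points and 10078 candidates high values are common.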

How the data were processed

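HT29 RNA-Seq counts of 3 siALDOA and 3 siControl libraries were analysed. Paired-end reads had been mapped by the authors to hg38 (tophat2) and assigned to genes (gfold), and the deposited files hold whole-number counts per gene symbol. How strand, gene models and multiply mapped reads were treated is not given in the sources used here. Every row named a gene, and groups were taken from the sample titles.

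Counts were tested in R 4.3.3 with edgeR 4.0.16, using filterByExpr, TMM factors, the quasi-likelihood F-test without covariates and Benjamini-Hochberg adjustment over all 15307 genes tested. The standard error is the ratio of the log2 fold change to the root of F. The replicates are separate samples by their labels, so p-values measure the spread between these libraries. BNIP3 and ANKRD37 rest on 20 to 40 counts a library, and counting error alone is then large. Alternatives were limma-voom (limma 3.58.1), DESeq2 1.42.0, edgeR's likelihood ratio test, library totals only, upper quartile factors, omission of the filter for low counts, a minimum of 10 counts in all libraries, removal of ribosomal RNA genes, thinning to the smallest total, a block for replicate number and omission of single libraries. The fit was tested on simulated data.

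Coordinates, exons and lengths are from GENCODE release 44 (hg38), and all 10 symbols matched. The 10 genes and the lists were chosen with earlier results of these data known. Named beside them were ALDOA, for each changed gene the best correlated gene, and, from each list, up to 8 genes past the threshold and the 2 of smallest p that did not pass. A gene that this rule would name is not reported here. Figures were drawn in python 3.11.15 with matplotlib 3.10.9.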

Additional observations from a re-analysis of the deposited data

How the results depend on the processing

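EPAS1, CA9 and ALDOA kept their direction and their call in all 16 alternatives. Over 26 named genes and their alternatives, 337 of 414 values kept direction and side of the threshold, 41 lost a call, 24 gained one and 12 turned sign, all 12 in genes that were not called. HIF1A was -0.015 without siControl replicate 2 and EGLN3 -0.031 without siALDOA replicate 1. ADM was 0.046 with library totals only and 0.20 without siALDOA replicate 3. Omitting siControl replicate 2 gave it 0.036 and omitting siControl replicate 3 gave 0.067. ANKRD37 was 0.017 with limma-voom, 0.065 with library totals only, 0.19 with thinned libraries, 0.0068 with the replicate block, 0.022 without siALDOA replicate 1 and 0.21 without siControl replicate 1. Leaving out each library in turn gave -0.015 to 0.063 for HIF1A, -0.031 to 0.14 for EGLN3, -0.24 to 0.20 for ADM and -0.13 to 0.21 for ANKRD37.

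Of the 10 HIF factors and targets, 2 were higher with no filter on low counts (CA9 and NDRG1) and 1 lower with library totals only (EPAS1). Leaving out a library gave 1 to 2 higher and 1 to 2 lower. Of all genes tested, 279 were lower with library totals only, against 810, and 896 were higher, against 668. Leaving out a library gave 359 to 644 higher and 471 to 790 lower, with the fewest higher genes without siControl replicate 2 and the fewest lower genes without siControl replicate 3. In the HIF machinery 2 genes were lower with the likelihood ratio test, with no filter or with the replicate block, 0 with library totals only, and 0 to 1 with a library left out. Of the other targets, 2 were higher with DESeq2, the likelihood ratio test, library totals only, no filter, a minimum of 10 counts, without ribosomal RNA genes or with the replicate block, and 1 to 2 with a library left out. Library totals only left 2 of them lower, against 4, and 3 were lower with any library left out. Of the glycolytic targets, 2 were higher with DESeq2, the likelihood ratio test, library totals only or no filter, 3 with the replicate block and 0 to 2 with a library left out. The lower ones numbered 4 with DESeq2 or no filter, 5 with the replicate block, 1 with a minimum of 10 counts, 0 with library totals only or upper quartile factors and 0 to 3 with a library left out. The cause was not tested. The replicate block changed no call among the 10 genes, with log2 fold changes of -0.79 for EPAS1, -0.24 for EGLN1 and 0.42 for CA9, and it took all genes from 668 to 987 higher and from 810 to 1175 lower. Same-numbered libraries of the groups deviated from their group means with correlations of 0.035, 0.027 and 0.026, so the numbers were not taken to pair them, although each library correlated best with its own number. The count ratios are -0.81 and 0.30 with or without the block by construction, since each number holds 1 library of each group. Genes near 1 CPM, such as BNIP3 and ANKRD37, could show only large changes at this depth.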

Other observations

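Within the siALDOA group, replicate 3 held the lowest CPM of 5 of the 6 target genes (CA9, VEGFA, ADM, NDRG1 and BNIP3), all but ANKRD37. EGLN3, also a HIF target but grouped here with the hydroxylases, was lowest in siALDOA replicate 2 (9.85 CPM, against 10.6 in replicate 3). Of the 35 further non-glycolytic targets tested, 19 (54.3%) were lowest in that library, beside 32.2% of all genes tested. In the siControl group, replicate 3 was lowest for 1 of the 6 target genes, replicate 1 for 2 and replicate 2 for 3. Replicate 3 was lowest there for 17 of the same 35 (48.6%), beside 30.0% of all genes tested. This count was chosen after the values were seen, and its cause was not tested.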
